A study of Mus musculus with 57 samples.

Results

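Peaks of 3 histone marks were examined at 54 homeobox genes outside the Hox clusters, in the cortex and the gastrocnemius of PSAPP mice. The genes were taken by symbol and fall into 8 groups: 6 Dlx genes, 4 Emx and Otx genes, 12 LIM homeobox genes, 10 Nkx, Gbx and En genes, 6 Irx genes, 8 genes of limb and mesenchyme, 2 Meis genes and 6 genes of the Barhl, Tlx, Six3 and Six6 kind. They are 54 of the 26089 curated RefSeq genes on the autosomes and X that were scored, and none of them lies on X. Homeobox genes encode transcription factors that bind DNA through the homeodomain and lay down regional identity in the embryo, with Emx and Otx genes acting in the forebrain, Dlx genes in inhibitory neurons and limb buds, and Pitx1, Prrx1 and Shox2 in the limb. In adult tissue many of them are kept silent by Polycomb complexes, which write H3K27me3. H3K4me3 is found at active and at poised promoters, and H3K27ac at active promoters and enhancers.

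All libraries came from PSAPP mice, a model of Alzheimer's disease that carries mutant forms of the amyloid precursor protein and of presenilin 1, and every animal was 13 months old and had been fed a modified AIN-93 diet in single housing. No animals without the transgenes are among these samples, so tissue is the contrast, while genotype, age and diet are shared. Each mark was profiled in 9 cortex and 10 gastrocnemius libraries, which gives 57 libraries. By the animal codes in the deposited names, 9 mice gave both tissues and 1 mouse gave muscle only. Which promoter drives the transgenes was not stated in the sources at hand.

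Signal at a gene is the number of reads of called peaks within 1 kb of its transcription start site (TSS), scaled to 1000000 reads in the autosomal peaks of that library (RPM). A library without a called peak in the window counts as 0 RPM, although uncalled reads may lie there. A library held 9159253 to 18993192 reads in peaks for H3K4me3, 3935242 to 27268192 for H3K27ac and 2994888 to 18247332 for H3K27me3. The H3K27me3 library of gastrocnemius replicate 5 held the most reads of its mark, and it was the only muscle library with a peak at all 54 genes. Of 6 muscle fibre markers, Ckm, Tnnt3, Ttn and Myh4 had no H3K4me3 peak in any cortex library, Acta1 had one in 1, and Mylpf had one in all 9, with 42.4 RPM against 24.99 RPM in the gastrocnemius, so that their sum was 33.2 to 50.4 RPM in the cortex and 97.4 to 136 RPM in the gastrocnemius. Of 5 cortical neuron markers, Rbfox3, Neurod6 and Snap25 had none in any gastrocnemius library, while Slc17a7 and Syt1 had one in all 10, and their sum was 78.8 to 132 RPM in the cortex and 7.75 to 15.04 RPM in the gastrocnemius. The 5 markers of mononuclear cells of muscle, Pax7, Pdgfra, Cdh5, Pecam1 and Cd34, all carried H3K4me3 in every gastrocnemius library, with a sum of 62.0 to 92.3 RPM against 35.7 to 44.5 RPM in the cortex. Their part in the results on muscle was not tested. The deposited names of the muscle libraries carry a note on uniquely mapped pairs that those of the cortex lack, and such a difference in processing cannot be told apart from the tissue.

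Among the cortex libraries, those of 4 mice (replicates 1, 2, 6 and 7) differed from the others in a marker of another brain region. Tac1, a neuropeptide gene of striatal neurons, had an H3K27ac peak in these 4 libraries at 3.58 to 5.64 RPM and in none of the other 5. Its H3K4me3 was 10.9 to 20.4 RPM in the 4 and 4.31 to 6.32 RPM in the other 5, whereas H3K4me3 at Neurod6, a gene of cortical excitatory neurons, was 6.58 to 13.8 RPM against 15.1 to 17.6 RPM. The other 4 cortical neuron markers, Slc17a7, Snap25, Syt1 and Rbfox3, overlapped in H3K4me3, as did the sum of the 5, at 78.8 to 132 RPM against 88.3 to 122 RPM, and Neurod6 overlapped in H3K27ac. Of the 5 subcortical markers, Drd1 also separated in H3K4me3, at 16.8 to 19.95 RPM against 10.3 to 15.05 RPM, while Ppp1r1b, Adora2a and Rgs9 overlapped, as did the sum of the 5, at 73.6 to 109 RPM against 57.9 to 75.1 RPM. In H3K27ac all but Tac1 overlapped, and in H3K27me3 none of the 5 separated. Of the cortical neuron markers, Slc17a7 had more H3K27me3 in the 4, at 11.87 to 14.45 RPM against 8.22 to 11.55 RPM.

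The promoters of 6 genes are printed first, as examples from 6 groups of promoters whose H3K4me3 or H3K27ac did not overlap between the tissues. Emx1 was higher in the cortex, and En1, Tlx1, Lmx1b, Shox2 and Irx3 were higher in the gastrocnemius. Each line holds the 250 bases before the TSS, 5′ to 3′ on the strand of the gene, from RefSeq on GRCm38.p6, with CG dinucleotides in capitals.
Emx1 (chr6:85187681-85187930, plus strand): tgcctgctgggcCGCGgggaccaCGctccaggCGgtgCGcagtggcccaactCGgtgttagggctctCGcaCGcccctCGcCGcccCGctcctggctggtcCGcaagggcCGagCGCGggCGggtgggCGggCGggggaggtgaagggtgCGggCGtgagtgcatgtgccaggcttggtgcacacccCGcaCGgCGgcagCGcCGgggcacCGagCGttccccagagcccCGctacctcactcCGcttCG
En1 (chr1:120602237-120602486, plus strand): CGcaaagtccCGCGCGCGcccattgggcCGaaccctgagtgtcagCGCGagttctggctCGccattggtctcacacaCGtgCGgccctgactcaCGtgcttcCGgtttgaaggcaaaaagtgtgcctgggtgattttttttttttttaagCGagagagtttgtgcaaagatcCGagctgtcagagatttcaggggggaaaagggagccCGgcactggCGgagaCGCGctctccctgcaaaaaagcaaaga
Tlx1 (chr19:45150465-45150714, plus strand): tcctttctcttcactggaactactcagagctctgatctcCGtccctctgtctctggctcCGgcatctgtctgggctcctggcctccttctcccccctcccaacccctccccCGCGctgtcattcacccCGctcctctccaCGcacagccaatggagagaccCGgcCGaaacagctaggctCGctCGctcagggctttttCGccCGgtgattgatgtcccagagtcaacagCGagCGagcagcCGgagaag
Lmx1b (chr2:33641099-33641348, minus strand): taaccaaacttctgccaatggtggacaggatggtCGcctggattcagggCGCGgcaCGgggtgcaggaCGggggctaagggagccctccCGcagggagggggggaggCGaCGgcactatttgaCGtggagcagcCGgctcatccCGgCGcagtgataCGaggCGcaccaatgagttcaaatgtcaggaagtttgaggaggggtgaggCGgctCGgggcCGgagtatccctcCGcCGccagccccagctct
Shox2 (chr3:66981772-66982021, minus strand): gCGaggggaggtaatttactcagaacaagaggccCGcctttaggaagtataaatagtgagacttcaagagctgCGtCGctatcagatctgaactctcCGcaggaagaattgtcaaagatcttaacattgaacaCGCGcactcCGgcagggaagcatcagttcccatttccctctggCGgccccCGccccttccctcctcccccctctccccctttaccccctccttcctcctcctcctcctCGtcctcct
Irx3 (chr8:91801655-91801904, minus strand): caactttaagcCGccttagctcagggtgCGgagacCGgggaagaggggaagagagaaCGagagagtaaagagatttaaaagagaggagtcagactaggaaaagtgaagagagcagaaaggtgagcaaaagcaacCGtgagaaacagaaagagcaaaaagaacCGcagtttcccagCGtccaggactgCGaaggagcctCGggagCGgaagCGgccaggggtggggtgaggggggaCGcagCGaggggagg
The Emx1 stretch holds 30 CG dinucleotides, those of En1 and Lmx1b 19 each, Tlx1 15, Irx3 13 and Shox2 11. Promoter windows of 300 bases, with 50 bases after the TSS, were on hand for 39 of the 54 genes. Their median GC content was 63.3% and their median ratio of observed to expected CpG was 0.748, against 55.7% and 0.555 over the 19064 genes with such a window. The homeodomain core TAATTA, which reads the same on both strands, occurred in 5 of the 39 windows (12.8%), those of Barhl1, Emx2, Msx2, Otx2 and Prrx1, and in 4.69% of all windows. A match describes the letters and not a binding site.

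H3K27me3 lay over nearly all of these genes in both tissues. A peak reached the TSS window of 53 or 54 of the 54 genes in each cortex library, and of 50 to 54 in each gastrocnemius library. The mean signal per gene had a median of 14.7 RPM in the cortex and of 11.7 RPM in the gastrocnemius, against 4.38 and 4.59 RPM over the 9422 genes tested. The lower quartile of the homeobox genes in the cortex, 13.4 RPM, was above the upper quartile of all genes tested, 7.92 RPM. The peaks were wide as well. Their width at the TSS had a median of 30.6 kb in the cortex and 26.6 kb in the gastrocnemius, where the median over all genes with a peak was 6.60 and 7.40 kb. The widest in the cortex, by the median over libraries, covered Barhl2, a gene of developing neurons, with 63.0 kb, and Alx4, a gene of limb patterning, with 57 kb. In the gastrocnemius the widest again covered Barhl2, with 58.0 kb, while the peak at Alx4 measured 27.2 kb.

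**Figure D1:**
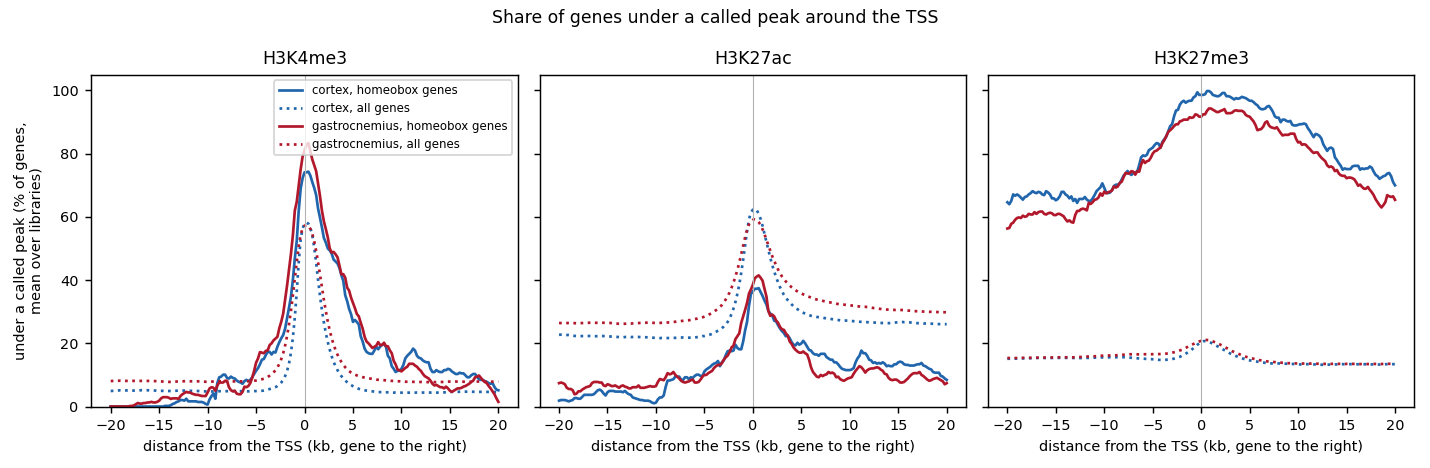
Share of genes under a called peak (%, mean over libraries) against distance from the TSS (kb), for the 54 homeobox genes and for all 26089 genes in cortex and gastrocnemius, one panel for each mark. At the TSS, H3K27me3 covered 98.6% of the homeobox genes in the cortex and 91.7% in the gastrocnemius, against 20.4% and 20.8% of all genes, whereas H3K27ac covered fewer of them than of all genes.

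The plot of coverage against distance shows how far the marks reached. H3K27me3 still covered 69.96% of the homeobox genes in the cortex and 65.4% in the gastrocnemius at 20 kb downstream of the TSS, where the shares of all genes were 13.4% and 13.5%. H3K4me3 was over 74.1% of them at the TSS in the cortex and 81.1% in the gastrocnemius, and over 11.9% and 11.1% at 10 kb downstream. At 5 kb downstream H3K4me3 covered 26.8% and 32.8% of the homeobox genes, against 6.44% and 10.4% of all genes. H3K27ac covered 36.4% and 38.5% of the homeobox genes at the TSS, against 62.3% and 59.0% of all genes.

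Most of the promoters carried H3K4me3 together with H3K27me3. A gene was counted as carrying a mark in a tissue when most of its libraries had a peak in the TSS window. By that count 44 of the 54 genes carried both marks in the cortex (81.5%) and 42 in the gastrocnemius (77.8%), against 11.8% and 11.4% of all genes. In bulk tissue, marks on the same chromosomes and marks in different cells cannot be told apart, nor can fewer marked cells and less mark per cell. Of the 44 genes with both marks in the cortex 21 were acetylated, and of the 42 in the gastrocnemius 19. Among all genes with both marks, 86.7% in the cortex and 72.9% in the gastrocnemius carried H3K27ac.

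The state was the same in both tissues for 48 genes. Of these, 40 carried both marks in each tissue. The other 8 carried H3K27me3 alone in each tissue, namely Otx2, which acts in the early fore- and midbrain, Lhx3 and Lhx5, LIM genes of motor and forebrain neurons, Nkx2-1, a gene of ventral forebrain and lung, Nkx2-5 and Irx4, genes of the heart, Barx1, a gene of face and stomach mesenchyme, and Six6, a gene of the eye. Six6 had no H3K4me3 or H3K27ac peak in any of the libraries. The other 6 genes changed state. Nkx2-3, a gene of spleen and gut mesoderm, and Tlx1, which is needed for the spleen, carried H3K27me3 alone in the cortex and both marks in the gastrocnemius. Irx6 carried both marks in the cortex and H3K27me3 alone in the gastrocnemius, with H3K4me3 peaks in 7 of 9 cortex and 4 of 10 gastrocnemius libraries. Meis1, Pitx3 and Prrx1 carried both marks in the cortex and H3K4me3 alone in the gastrocnemius.

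H3K27ac was present in both tissues at 14 genes, Dlx2, Emx2, Otx1, Lhx2, Lhx6, Nkx6-2, Irx3, Irx5, Pitx3, Msx1, Meis1, Meis2, Prrx1 and Alx4. It was present in the cortex alone at 7, Dlx1, Dlx5, Dlx6, Emx1, Nkx2-2, En2 and Six3, and in the gastrocnemius alone at 8, Dlx3, Lhx1, Isl2, Gbx1, Gbx2, En1, Pitx1 and Shox2. The remaining 25 genes lacked it in both.

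**Figure D2:**
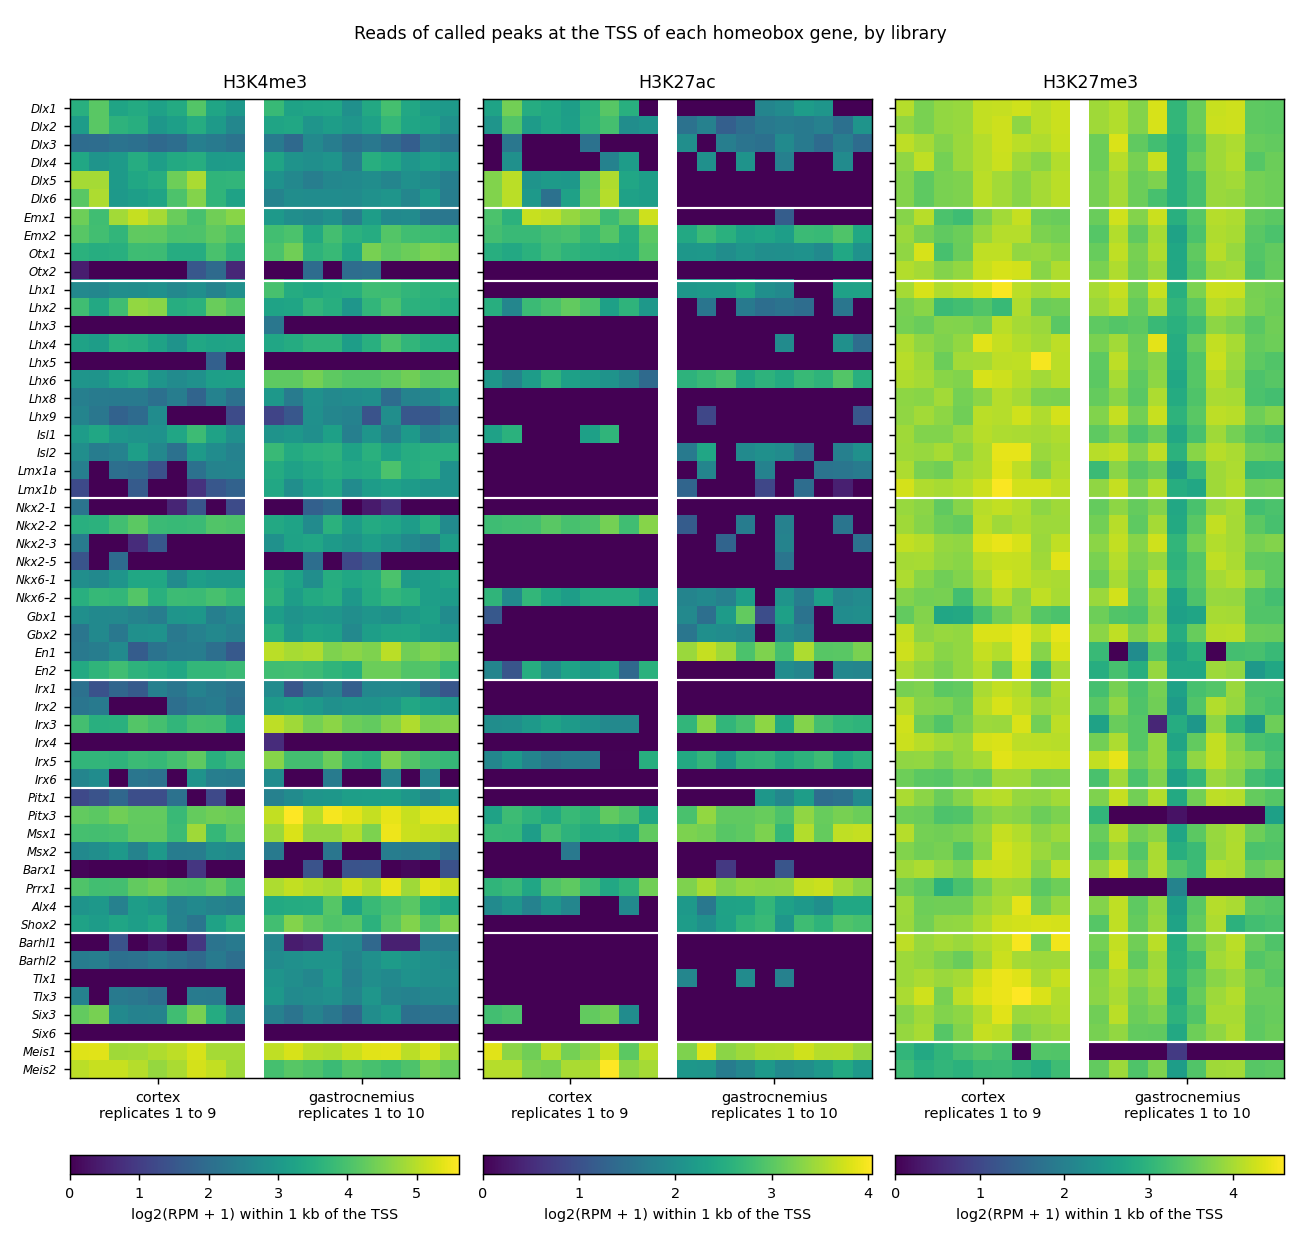
Signal at the TSS (log2 of RPM plus 1, on a colour scale of its own for each mark) of the 54 homeobox genes, in rows by group, in each cortex and gastrocnemius library, in columns, for the 3 marks. The H3K27me3 panel is filled for nearly every gene and library, with dark stretches in the gastrocnemius at Pitx3, Prrx1 and Meis1, while H3K4me3 and H3K27ac are dark at many genes in both tissues.

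The heat map of single libraries shows the 3 genes that lacked H3K27me3 in most muscle libraries. Prrx1, a gene of limb bud mesenchyme and connective tissue, had H3K27me3 in all 9 cortex libraries, at 6.74 to 14.3 RPM with a median of 11.1, and in 1 of 10 gastrocnemius libraries, replicate 5, at 3.16 RPM. All cortex libraries were above all muscle libraries. The log2 fold change of cortex over gastrocnemius, on which positive values mean higher in the cortex, was 4.73 ± 1.01 (SE), with an adjusted p of 0.00107 in edgeR's quasi-likelihood test, which was run over all genes. The share of libraries with a peak also differed, with an adjusted p of 0.00111 in Fisher's exact test. Without replicate 5, the library with the most reads, no muscle library had a peak there and the adjusted p in edgeR was 3.42e-07. The fitted log2 fold change was then 8.82, a value that depends on the prior count of the fit, so the size of the fold rests on this library.

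Pitx3, which is known for dopaminergic neurons and muscle, had H3K27me3 at 8.98 to 13.1 RPM in the 9 cortex libraries, with a median of 11.1. In the gastrocnemius it had peaks in replicates 1, 5 and 10 only, at 7.19, 0.166 and 5.14 RPM. The tissues did not overlap. The log2 fold change was 3.11 ± 0.995 (edgeR, adjusted p = 0.0175), and the calls differed as well (Fisher's exact test, adjusted p = 0.0156). With the cortex libraries of the 5 other mice only, the log2 fold change was 3.05 and the adjusted p in edgeR 0.105.

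Meis1, a partner of Hox and Pbx proteins, had H3K27me3 in 8 of 9 cortex libraries, all but replicate 7, with a median of 8.42 and a highest value of 9.33 RPM. In the gastrocnemius it had a peak in replicate 5 only, at 0.73 RPM. The log2 fold change was 5.93 ± 1.08 (edgeR, adjusted p = 0.000217; Fisher's exact test, adjusted p = 0.00688). Without replicate 5, no muscle library had a peak at Meis1, and the fit gave 8.23, which depends on its prior count (edgeR, adjusted p = 8.4e-05). The other marks of Meis1 were close in the tissues. H3K4me3 was 32.0 ± 5.34 RPM in the cortex and 34.6 ± 4.39 RPM in the gastrocnemius (SD over 9 and 10 libraries, as for all RPM values below, while errors of log2 fold changes are SE), with a log2 fold change of -0.11 and an adjusted p of 0.315 in edgeR. H3K27ac averaged 9.96 and 10.7 RPM (edgeR, adjusted p = 0.444). Under TMM scaling, which centres the bulk of the genes, Meis1 was called higher in the gastrocnemius, with log2 fold changes of -0.42 for H3K4me3 and -0.38 for H3K27ac.

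Prrx1 and Pitx3 had more of both active marks in muscle. H3K4me3 at Prrx1 was 14.0 to 19.9 RPM in the cortex, with a median of 16.3, and 27.01 to 41.3 RPM in the gastrocnemius, with a median of 31.7, without overlap (log2 fold change -0.998 ± 0.09, edgeR, adjusted p = 7.19e-09). At Pitx3 it was 13.0 to 20.03 RPM against 30.7 to 47.8 RPM, again without overlap (-1.10 ± 0.09, adjusted p = 1.32e-09). H3K27ac at Prrx1 was 4.21 to 7.94 RPM in the cortex and 8.60 to 12.1 RPM in the gastrocnemius (-0.78 ± 0.11, edgeR, adjusted p = 4.87e-06), and at Pitx3 it averaged 5.35 ± 1.09 and 7.73 ± 1.02 RPM (-0.52 ± 0.11, adjusted p = 0.000652). The acetylated regions differed in size by more than the signal at the TSS did. The H3K27ac peak at Prrx1 had a median width of 5.80 kb in the cortex and 31.7 kb in the gastrocnemius, and that at Pitx3 2 kb and 23.9 kb. Over all genes with a peak, the median width was also greater in muscle. It was 5.6 kb in the cortex and 7.6 kb in the gastrocnemius for H3K27ac, and 3.0 and 3.9 kb for H3K4me3. H3K27ac covered 14.1% of the 68.5 kb Prrx1 gene body in the cortex and 82.4% in the gastrocnemius.

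Over all 54 genes, the read test called H3K27me3 higher in the cortex at 27 and higher in the gastrocnemius at 1. Over all 9422 genes tested these calls made up 19.8% and 23.1%. The median log2 fold change of the 54 was 0.32, against 0.08 over all genes, and it was above 0 at 50 of the 54, all but Emx1, Lhx2, Gbx1 and Meis2. The count depended on the libraries and on the scaling. It was 9 in the cortex direction with the cortex libraries of the 5 other mice. It was also 9 without the libraries whose names carry an S number (cortex replicates 8 and 9, gastrocnemius replicates 5, 6, 9 and 10). For these settings the share of all genes is not given, so the counts of 9 cannot be set against it. With TMM scaling the count was 49 and with DESeq2 28, where 22.2% and 17.4% of all genes were higher in the cortex. The sum over the 54 genes ranged from 319 to 505 RPM in the 4 muscle libraries with an S number and from 535 to 771 RPM in the other 6. In the cortex it was 748 and 819 RPM with an S number and 628 to 908 RPM without. The part of that difference in the tissue contrast was not tested beyond leaving these libraries out. Without overlap of the libraries, 3 genes were higher in the cortex, Prrx1, Pitx3 and En1, and none in the gastrocnemius, against 4.36% and 4.50% of all genes tested. The test on calls found Prrx1, Pitx3 and Meis1 in the cortex direction and none in the other, against 15.6% and 17.7% of all genes, and at an unadjusted p under 0.05 it also found 3 and 0.

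The genes with more H3K27me3 in the cortex came from every group when all libraries were used. They were 7 of the LIM genes, Lhx1, Lhx3, Lhx5, Lhx6, Isl1, Lmx1a and Lmx1b, and 6 of the Nkx, Gbx and En genes, Nkx2-1, Nkx2-3, Nkx2-5, Gbx2, En1 and En2. The others were Irx1, Irx2, Irx3 and Irx4, Barhl1, Tlx1, Tlx3 and Six3, the limb genes Pitx3, Prrx1 and Shox2, and Dlx3, Otx2 and Meis1. Apart from Prrx1, Pitx3, Meis1 and En1, their log2 fold changes lay between 0.34 and 0.94. Of the 27, 9 kept the call with the cortex libraries of the 5 other mice, Isl1, Lmx1a, En1, Irx4, Meis1, Tlx1, Tlx3, Prrx1 and Shox2, and none of these is a Dlx, Emx or Otx gene. The 18 lost calls had a median log2 fold change of 0.46 with all libraries and of 0.41 with those of the 5 mice. Without the libraries with an S number 9 kept it as well, and the median of the 18 lost calls fell from 0.46 to 0.24. In both settings 7 kept it, Isl1, En1, Irx4, Meis1, Tlx1, Tlx3 and Prrx1. With the animal as a block, which pairs the tissues of the 9 mice, Nkx2-3 was no longer called (adjusted p = 0.101), nor was it with any 1 of 10 libraries left out, cortex replicates 1, 5, 6, 7 and 9 and gastrocnemius replicates 1, 3, 6, 9 and 10 (edgeR, adjusted p = 0.1003 to 0.144). With the same block Lhx2, a gene of cortex and limb, was called higher in the gastrocnemius (log2 fold change -0.33, adjusted p = 0.0758). En1, a gene of midbrain and ventral limb ectoderm, had H3K27me3 at 12.7 to 20.8 RPM in the cortex, with a median of 15.9. In the gastrocnemius 8 of 10 libraries had a peak, up to 9.42 RPM, with a median of 7.26 over the 10. The log2 fold change was 1.47 ± 0.37 (edgeR, adjusted p = 0.00405).

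Meis2 was the 1 gene with more H3K27me3 in muscle. At its TSS the signal was 6.27 to 8.08 RPM in the cortex, with a median of 7.16, and 4.90 to 14.7 RPM in the gastrocnemius, with a median of 10.1, and the tissues overlapped (log2 fold change -0.56 ± 0.17, edgeR, adjusted p = 0.012). Over the 206 kb gene body the difference was larger. H3K27me3 peaks covered 5.34% of it in the cortex and 57.5% in the gastrocnemius, at 0.185 and 2.17 RPM per kb, a log2 fold change of -3.55 (edgeR, adjusted p = 4.5e-10). The active marks ran the other way. H3K27ac covered 38.8% of the Meis2 body in the cortex and 2.83% in the gastrocnemius, and the H3K4me3 peak at the TSS had a median width of 20 kb and 7.70 kb. Meis3, another Meis gene that is not among the 54, had H3K27me3 in 10 of 10 gastrocnemius libraries at 9.30 ± 2.51 RPM and in 2 of 9 cortex libraries with a mean of 0.00433 RPM, while its H3K4me3 was 40.0 ± 7.13 RPM in the cortex and 14.0 ± 3.59 RPM in the gastrocnemius.

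H3K4me3 at these genes was called higher in the gastrocnemius more often than in the cortex. Of the 50 genes with enough peaks to be tested, 25 were higher in the gastrocnemius and 10 in the cortex. Over all 16728 genes tested, 16.1% were higher in the gastrocnemius and 59.0% in the cortex. RPM scaling set the median log2 fold change of all genes at 0.33, and that of the 50 genes was -0.44. With TMM scaling the medians were 0.04 and -0.78, the shares of all genes were 27.5% and 32.2%, and the calls at the homeobox genes were 28 and 6. Without overlap of the libraries, 16 genes were higher in the gastrocnemius and 4 in the cortex, against 6.58% and 17.9% of all genes tested. The test on calls found Tlx1 and Nkx2-3 in the gastrocnemius direction, against 3.49% of all genes, and none in the cortex direction, against 5.27%, and at an unadjusted p under 0.05 Fisher's exact test found 4 and 0. Lhx3, Lhx5, Irx4 and Six6 had too few peaks to be tested. The mean H3K4me3 signal was low at most of these genes, with a median of 6.40 RPM in the cortex and 7.62 RPM in the gastrocnemius, against 35.8 and 28.3 RPM over all genes tested.

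H3K27ac could be tested at 36 of the 54 genes, and 18 of these were called higher in the gastrocnemius and 11 in the cortex. With the animal as a block the counts were 13 and 12, and among genes called in every library 5 and 4. For these settings the shares of all genes are not given. The 18 include Lmx1b, Tlx1, Nkx2-3 and Lhx4, which could be tested only through 3 or 4 muscle libraries and had no peak in the cortex. En1, Shox2, Lhx1, Isl2, Gbx2, Pitx1 and Lmx1a had none there either, and Gbx1 had 1. These too could be tested only through muscle libraries. Of the 11, Dlx5, Dlx6, Isl1 and Six3 had no muscle peak and Emx1 had 1, so these could be tested only through the cortex. The counts and the median fold change rest partly on such genes, whose fitted folds depend on the prior count. Over all 18354 genes tested, 12.9% were higher in the gastrocnemius and 49.7% in the cortex, and with TMM scaling 24.7% and 31.7%, where the calls at the homeobox genes were 19 and 10. The median log2 fold change was -0.71 for the 36 genes and 0.31 for all genes. Without overlap, 4 genes were higher in the gastrocnemius and 7 in the cortex, against 4.43% and 14.5%. The test on calls found 8 and 6, against 4.43% and 9.83%. The 18 genes not tested had H3K27ac peaks in at most 2 libraries of a tissue. They were Otx2, Lhx3, Lhx5, Lhx8, Lhx9, Nkx2-1, Nkx2-5, Nkx6-1, Irx1, Irx2, Irx4, Irx6, Msx2, Barx1, Barhl1, Barhl2, Tlx3 and Six6.

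**Figure D3:**
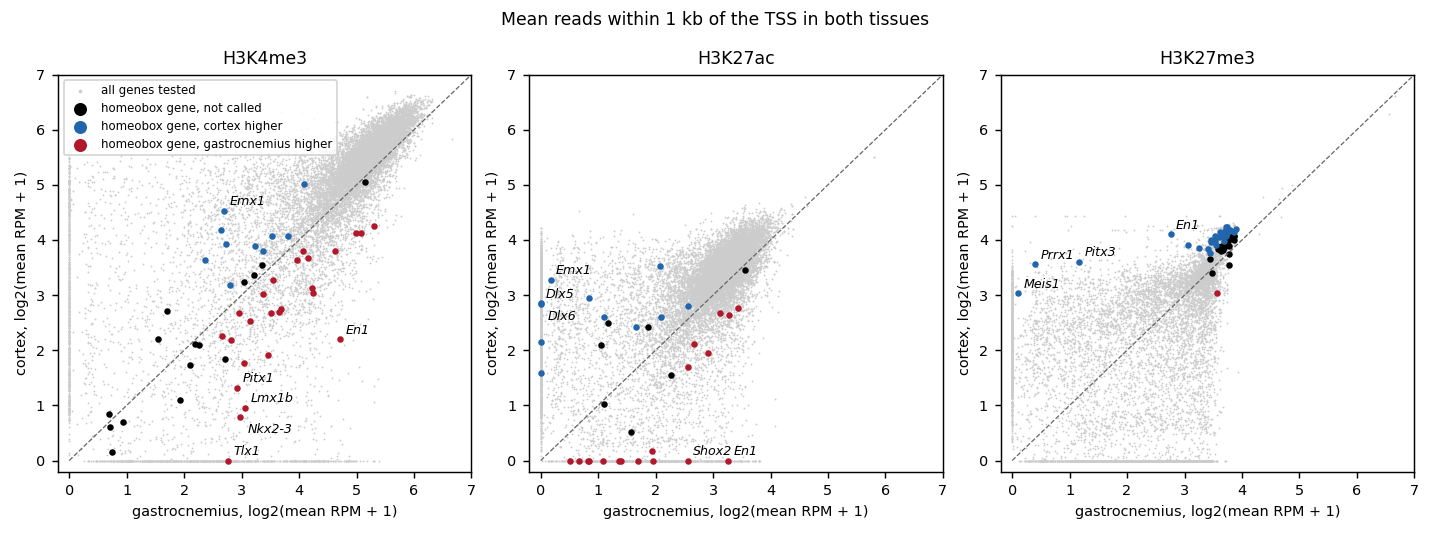
Mean signal at the TSS in the cortex (vertical) against the gastrocnemius (horizontal), both as log2 of mean RPM plus 1, for all genes tested (grey) and the homeobox genes, coloured by the read test, one panel for each mark; the broken line marks equal values. Emx1, Dlx5 and Dlx6 lie far above the line in H3K27ac and En1 and Shox2 on the axis below it, and in H3K27me3 most homeobox genes crowd at the upper end, slightly above the line.

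The scatter plot sets the tissues against each other. Between the marks, the tissue differences across the 54 genes were related. Those in H3K4me3 and H3K27ac had a Pearson correlation of 0.764 and a Spearman correlation of 0.744. The differences in H3K4me3 and H3K27me3 had correlations of -0.281 and -0.445, and those in H3K27ac and H3K27me3 of -0.238 and -0.320. The marks of a tissue come from the same animals, and neighbouring genes are not independent, so these values are a description over genes.

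Among the Emx and Otx genes, Emx1, which marks the progenitors and excitatory neurons of the cortex, differed most. H3K4me3 at Emx1 was 13.8 to 33.6 RPM in the cortex, with a median of 19.9, and 3.68 to 7.64 RPM in the gastrocnemius, with a median of 5.45. All cortex libraries were above all muscle libraries, and the log2 fold change was 2.02 ± 0.17 (edgeR, adjusted p = 1.49e-09). H3K27ac at Emx1 was 5.01 to 12.3 RPM in the 9 cortex libraries, with a median of 8.45, and 1 of 10 muscle libraries had a peak, at 1.27 RPM (Fisher's exact test, adjusted p = 0.00137). H3K27me3 at Emx1 was 12.4 ± 3.20 RPM in the cortex and 12.7 ± 3.97 RPM in the gastrocnemius (log2 fold change -0.02 ± 0.19, edgeR, adjusted p = 0.957). When all reads of overlapping peaks were counted, H3K27me3 at Emx1 was called higher in muscle (-0.68, adjusted p = 0.0093), where its peak had a median width of 18.4 kb against 9.80 kb in the cortex.

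Emx2, its paralog in the developing cortex, was close in both tissues, at 15.8 and 13.0 RPM of H3K4me3 (0.28, edgeR, adjusted p = 0.0239), and this call was lost with TMM scaling (-0.01). Its H3K27ac call (0.28, adjusted p = 0.0494) was lost with the cortex libraries of the 5 other mice at a like size (0.28, adjusted p = 0.149), and with TMM scaling the difference was close to 0 (0.02, adjusted p = 0.888). Otx1, a gene of deep cortical layers, had more H3K4me3 in the gastrocnemius, with means of 11.7 and 16.8 RPM (-0.52 ± 0.15, adjusted p = 0.0051), and more H3K27ac in the cortex, with means of 5.11 and 3.26 RPM (0.64 ± 0.13, adjusted p = 0.000476). The H3K4me3 call was lost when all reads of overlapping peaks were counted (0.02). Otx2 had H3K4me3 peaks in 4 of 9 cortex and 3 of 10 muscle libraries. The TSSs of Emx2 and of the opposite-strand gene Emx2os are 55 bases apart, and their peaks cannot be told apart. The same holds for Lhx1, Lhx5, Lhx8, Lmx1b, Irx2, Meis2 and Dlx4, each with a TSS on the opposite strand within 748 bases.

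The Dlx genes, which lie in 3 pairs, specify inhibitory neurons of the forebrain and act in limb and face. Dlx5 and Dlx6 differed in both active marks. H3K4me3 at Dlx5 was 7.26 to 28.6 RPM in the cortex, with a median of 11.9, and 4.29 to 6.20 RPM in the gastrocnemius, with a median of 5.21 (1.72 ± 0.24, edgeR, adjusted p = 2.73e-06). At Dlx6 it was 7.23 to 29.025 RPM against 4.31 to 7.08 RPM (1.34 ± 0.23, edgeR, adjusted p = 4.84e-05). Neither gene overlapped between the tissues. H3K27ac was called at both genes in 9 of 9 cortex libraries, at 3.27 to 11.4 RPM for Dlx5 and 1.83 to 11.4 RPM for Dlx6, and in no muscle library (Fisher's exact test, adjusted p = 0.000179 each).

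At Dlx1 and Dlx2 the H3K4me3 result depended on the counting. At the TSS it averaged 10.7 and 9.28 RPM at Dlx1 and 9.30 and 8.28 RPM at Dlx2, neither of them called (edgeR, adjusted p = 0.332 and 0.438), and with TMM scaling their log2 fold changes were -0.11 and -0.14. With all reads of overlapping peaks both were called higher in the cortex (1.67 and 1.51, edgeR, adjusted p = 1.05e-05 and 0.000104), and so they were over the gene bodies (0.58 and 0.44, edgeR, adjusted p = 0.00232 and 0.0189), the latter calls being lost with the cortex libraries of the 5 other mice (adjusted p = 0.101 and 0.191). H3K27ac at Dlx2 was 2.95 to 6.65 RPM in the cortex and 1.34 to 3.28 RPM in the gastrocnemius, with an overlap (1.02 ± 0.22, edgeR, adjusted p = 0.000706). Dlx1 had H3K27ac in 8 of 9 cortex and 4 of 10 muscle libraries, which was not called (edgeR, adjusted p = 0.128) but was called higher in the cortex with the animal as a block (adjusted p = 0.0287). Dlx3, a gene of skin and bone, had H3K27ac in 2 of 9 cortex and 9 of 10 muscle libraries (Fisher's exact test, adjusted p = 0.043), which the read test did not call (edgeR, adjusted p = 0.132). Several other settings did call it higher in muscle, among them the animal as a block (adjusted p = 0.0235), DESeq2 (adjusted p = 0.0725) and the cortex libraries of the 5 other mice (adjusted p = 0.000339). Dlx4 was not called in any mark at the TSS, although its H3K27me3 was called higher in the cortex with TMM scaling (0.26, adjusted p = 0.00344), with DESeq2 (0.198, adjusted p = 0.0981) and with equally many top-scoring peaks (0.41, adjusted p = 0.0333).

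H3K27me3 ran over the stretch between the genes of each Dlx pair. A single H3K27me3 peak spanned the TSSs of Dlx5 and Dlx6, 18.7 kb apart, in 9 of 9 cortex and 8 of 10 muscle libraries, and those of Dlx1 and Dlx2, 17.3 kb apart, in 8 of 9 and 9 of 10. Between Dlx3 and Dlx4, 25.7 kb apart, this was so in 2 of 9 and 3 of 10, although H3K27me3 peaks covered a median of 96.9% and 95.3% of that stretch. There the active marks covered little, H3K4me3 a median of 13.6% in the cortex and 20.02% in the gastrocnemius and H3K27ac 0% and 12.8%. H3K4me3 peaks covered between 61.6% and 100% of the Dlx5 to Dlx6 stretch in the cortex, with a median of 92.5%, and between 11.04% and 24.2% in the gastrocnemius, with a median of 15.1%. H3K27ac covered 22.8% to 100% of it in the cortex, with a median of 90.4%, and 0% in every muscle library. With the cortex libraries of the 5 other mice the medians were 83.99% for H3K4me3 and 61.6% for H3K27ac. In the Dlx1 to Dlx2 stretch the medians for H3K4me3 were 100% and 68.2%, and for H3K27ac 76.9% (15.02% to 100%) and 16.9%. With the 5 other mice they were 100% and 69.96% in the cortex. Between Dlx5 and Dlx6 both active marks thus reached much farther in the cortex than in muscle, where no H3K27ac was called, while most libraries of both tissues had 1 H3K27me3 peak over the pair.

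**Figure D4:**
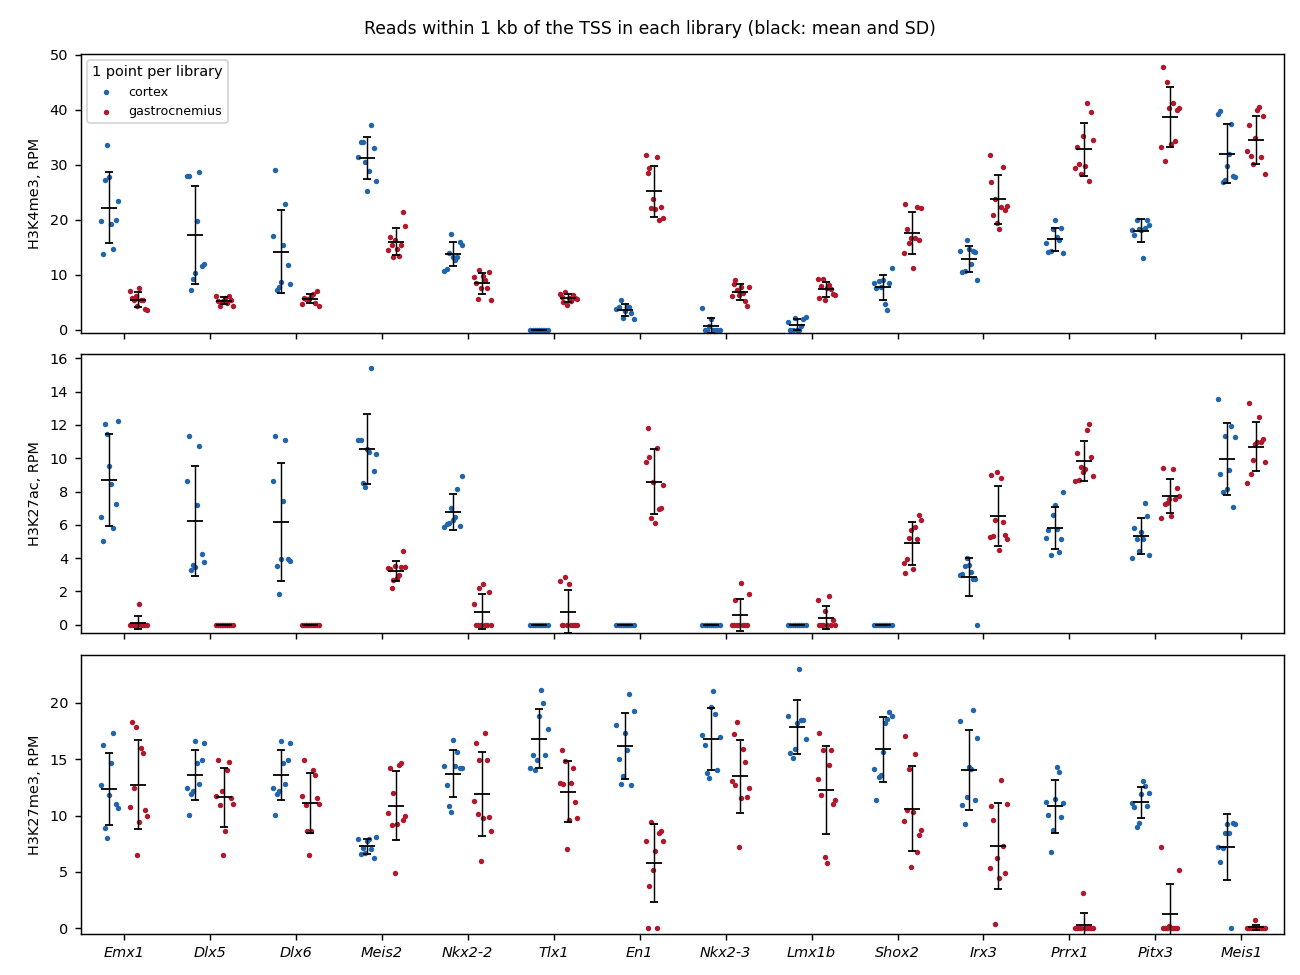
Signal at the TSS (RPM) of 14 genes in each library, cortex beside gastrocnemius, one panel for each mark, with 1 point per library and the mean and SD in black. At Emx1, Dlx5 and Dlx6 all cortex libraries lie above all muscle libraries in H3K4me3, at En1, Prrx1 and Pitx3 all muscle libraries lie above, and the cortex points of Dlx5 and Dlx6 spread from 7.26 to 28.6 RPM and from 7.23 to 29.025 RPM.

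The plot of single libraries shows the wide spread of Dlx5 and Dlx6 in the cortex. Their higher values fell in the 4 libraries with an H3K27ac peak at Tac1. These 4 were set apart after the data had been seen, so the separations given here are a description. H3K4me3 at Dlx5 was 19.7 to 28.6 RPM in these 4 and 7.26 to 11.9 RPM in the other 5, and at Dlx6 15.4 to 29.025 RPM against 7.23 to 11.8 RPM. H3K27ac was 7.20 to 11.4 RPM against 3.27 to 4.22 RPM at Dlx5 and 7.45 to 11.4 RPM against 1.83 to 3.95 RPM at Dlx6. Gad1, which makes the transmitter GABA, moved with them, at 17.7 to 27.6 RPM of H3K4me3 in the 4 and 9.04 to 14.7 RPM in the 5. Isl1, a LIM gene of striatal and motor neurons, had H3K27ac in the 4 libraries, at 3.92 to 5.24 RPM, and in none of the other 5. Six3, a gene of the anterior forebrain, had 6.02 to 7.92 RPM in the 4 and at most 2.91 RPM in the 5.

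In H3K4me3, Dlx1, Gbx1, Meis1 and Six3 were also higher in these 4 libraries without overlap, and Emx1 and Lhx6 were lower, Emx1 with 13.8 to 19.7 RPM against 19.9 to 33.6 RPM. H3K27me3 at Emx1 was 12.7 to 17.3 RPM in the 4 and 7.995 to 11.8 RPM in the other 5, and at Gbx1 10.3 to 13.3 RPM against 5.64 to 9.47 RPM. The remaining members overlapped, 46 of 54 in H3K4me3, 50 in H3K27ac and 52 in H3K27me3, which counts members without a peak in any cortex library as overlapping. Of the 50 members tested in H3K4me3, 6 were higher and 2 lower in the 4. Of the 36 tested in H3K27ac 4 were higher, of the 54 in H3K27me3 2, and in both 0 were lower. Over all genes tested, the 4 were higher without overlap at 1.7% and lower at 1.85% in H3K4me3, higher at 1.85% and lower at 0.387% in H3K27ac, and higher at 1.85% and lower at 0.456% in H3K27me3. The part of other brain regions in these values was not tested. With the cortex libraries of the other 5 mice alone, Dlx5 and Dlx6 were still called higher in the cortex in H3K4me3, with log2 fold changes of 0.95 and 0.64 (edgeR, adjusted p = 8.53e-05 and 0.00384), and Emx1 had a log2 fold change of 2.27. The H3K4me3 calls at Isl1 (0.20, adjusted p = 0.367) and Six3 (0.49, adjusted p = 0.13) were lost, and their H3K27ac could no longer be tested. Meis1 H3K4me3 was then called higher in the gastrocnemius (-0.31, adjusted p = 0.0163).

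The LIM homeobox genes, which pair a homeodomain with LIM domains and specify neuron classes and limb territories, could be tested in H3K4me3 at 10 of 12, and 7 were higher in the gastrocnemius and 2 in the cortex, Lhx2 and Isl1, where the shares of all genes were 16.1% and 59.0%. Lmx1b, which sets dorsal limb identity and serotonergic neurons, had H3K4me3 in 5 of 9 cortex libraries, with a median of 0.738 and a highest value of 2.38 RPM, and in every muscle library, at 5.49 to 9.22 RPM (-2.92 ± 0.70, edgeR, adjusted p = 0.00118). Its H3K27ac, called in 4 of 10 muscle libraries and no cortex library, passed the read test (adjusted p = 0.0235) but not with the animal as a block (adjusted p = 0.431). Over its 80.1 kb gene body, H3K27ac covered 16.9% in the cortex and 0.125% in the gastrocnemius, so the body ran against the TSS.

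Lhx6, which marks interneurons from the medial ganglionic eminence, had H3K4me3 of 5.48 to 9.39 RPM in the cortex and of 16.1 to 20.5 RPM in the gastrocnemius, without overlap (-1.30 ± 0.10, edgeR, adjusted p = 2.36e-10). Its H3K27ac was also higher in muscle, at 3.31 and 5.33 RPM (-0.68 ± 0.17, adjusted p = 0.00289). Lhx2 was higher in the cortex, at 15.8 and 10.5 RPM of H3K4me3 (0.59 ± 0.18, adjusted p = 0.00832), a call lost with TMM scaling (0.27, adjusted p = 0.222), and with H3K27ac in 9 of 9 cortex and 6 of 10 muscle libraries. Lhx1 and Isl2 had more H3K4me3 in muscle (-1.07 and -0.95), at 5.51 and 11.6 RPM and at 5.36 and 10.4 RPM, and H3K27ac in 8 of 10 muscle libraries and no cortex library (Fisher's exact test, adjusted p = 0.00691 each). Lmx1a averaged 2.75 and 10.001 RPM of H3K4me3 (-1.85 ± 0.51, edgeR, adjusted p = 0.00345). The H3K4me3 calls at Lhx4 (-0.30) and Lhx8 (-0.48) were smaller, that at Lhx4 was lost with the cortex libraries of the 5 other mice (adjusted p = 0.248), and that at Lhx8 was lost with the animal as a block (adjusted p = 0.2). Lhx9 was not called, but with every curated transcript start it was called higher in muscle (-0.71, edgeR, adjusted p = 0.0243).

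Among the Nkx, Gbx and En genes, En1 was higher in muscle in both active marks in all libraries. H3K4me3 at En1 was 1.95 to 5.46 RPM in the cortex, with a median of 3.81, and 19.996 to 31.8 RPM in the gastrocnemius, with a median of 23.1, without overlap (-2.82 ± 0.17, edgeR, adjusted p = 3.91e-12). H3K27ac was absent from the calls in all 9 cortex libraries and present in all 10 muscle libraries, at 6.14 to 11.8 RPM (Fisher's exact test, adjusted p = 0.000179). The H3K4me3 peak had a median width of 3 kb in the cortex and 8.60 kb in the gastrocnemius. The En1 promoter printed above thus had more of both active marks and less H3K27me3 in muscle.

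Nkx2-2, a gene of oligodendrocytes and ventral spinal cord, was higher in the cortex. Its H3K27ac was 5.86 to 8.93 RPM in all 9 cortex libraries, and 4 of 10 muscle libraries had a peak, up to 2.44 RPM (3.07 ± 0.89, edgeR, adjusted p = 0.0066). Its H3K4me3 averaged 13.7 and 8.44 RPM (0.70 ± 0.14, adjusted p = 0.000165). Nkx2-3 had H3K4me3 in 3 of 9 cortex libraries, up to 4.03 RPM, and in 10 of 10 muscle libraries, at 4.30 to 9.02 RPM (-3.22 ± 0.91, adjusted p = 0.00412; Fisher's exact test, adjusted p = 0.0361). Its 3 muscle libraries with H3K27ac passed the read test (adjusted p = 0.0215), but not with the animal as a block (adjusted p = 0.301).

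Gbx1 and Gbx2, genes of the hindbrain and spinal cord, had H3K27ac in 1 and 0 of 9 cortex libraries and in 9 and 6 of 10 muscle libraries (Fisher's exact test, adjusted p = 0.0103 and 0.076). En2, a midbrain and cerebellar gene, had H3K27ac in 9 of 9 cortex and 4 of 10 muscle libraries (Fisher's exact test, adjusted p = 0.076), which the read test did not call (edgeR, adjusted p = 0.194). It was called with the animal as a block (4.06, adjusted p = 0.0705), with a block by label number (5.44, adjusted p = 0.018) and without the libraries with an S number (2.94, adjusted p = 0.0854). Its H3K4me3 was slightly higher in muscle, at 11.5 and 14.6 RPM (-0.35, edgeR, adjusted p = 0.0146), a call lost with the cortex libraries of the 5 other mice (adjusted p = 0.124). Nkx6-2, an oligodendrocyte gene, had 12.9 and 9.41 RPM of H3K4me3 (0.46, adjusted p = 0.00219, lost with TMM scaling at 0.15). Nkx6-1 was called higher in muscle (-0.40, adjusted p = 0.0351), but not with the 5 other mice (adjusted p = 0.266), and Nkx2-1 and Nkx2-5 were not called. With equally many top-scoring peaks Nkx2-1 was called higher in the cortex (6.02, edgeR, adjusted p = 0.0226).

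The Irx genes lie in 2 clusters of 3 and pattern heart, neural tube and limb. Irx3 had more of both active marks in muscle. H3K4me3 was 9.06 to 16.4 RPM in the cortex, with a median of 14.1, and 18.3 to 31.9 RPM in the gastrocnemius, with a median of 22.4, without overlap (-0.87 ± 0.12, edgeR, adjusted p = 2.54e-06). H3K27ac was at most 4.02 RPM in the cortex, with no peak in replicate 9, the library with the fewest reads, and 4.49 to 9.20 RPM in the gastrocnemius (-1.14 ± 0.29, adjusted p = 0.00231). H3K27me3 averaged 14.0 ± 3.53 and 7.32 ± 3.83 RPM (0.94 ± 0.29, adjusted p = 0.0143), a call lost with the cortex libraries of the 5 other mice (0.80, adjusted p = 0.128) and without the libraries with an S number (0.83, adjusted p = 0.101), each at a like size. The H3K4me3 peak had a median width of 3.40 kb in the cortex and 9.60 kb in the gastrocnemius.

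Its neighbour Irx5 had a smaller difference in H3K4me3 and a like but less certain one in H3K27ac. H3K4me3 averaged 13.0 and 15.8 RPM (-0.28 ± 0.14, edgeR, adjusted p = 0.0777) and H3K27ac 2.23 and 4.88 RPM (-1.15 ± 0.57, adjusted p = 0.0906), the latter not called with the animal as a block (adjusted p = 0.143) or with the cortex libraries of the 5 other mice (adjusted p = 0.124). The H3K4me3 call was lost without cortex replicate 1, 2, 3, 5 or 8 or gastrocnemius replicate 1, 4 or 7 (adjusted p = 0.105 to 0.164), and the H3K27ac call with any 1 of 13 of the 19 libraries left out, all but cortex replicates 2, 7, 8 and 9 and gastrocnemius replicates 3 and 9 (adjusted p = 0.103 to 0.118). H3K27me3 at Irx5 was not called (adjusted p = 0.265). No single peak joined 2 Irx genes. Still, H3K27me3 covered much of the gene-poor stretches between them, a median of 72.8% of the 556 kb from Irx3 to Irx5 in the cortex and 62.2% in the gastrocnemius, and 58.3% and 38.5% of the 665 kb from Irx1 to Irx2. Irx2 was called higher in muscle in H3K4me3 (-1.57, adjusted p = 0.0345), and Irx1 and Irx6 were not called. With equally many top-scoring peaks Irx6 was called higher in the cortex (7.56, edgeR, adjusted p = 0.00763).

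In the main read test, the genes of limb and mesenchyme held no H3K4me3 or H3K27ac call in the cortex direction. Other settings called Msx2 higher in the cortex in H3K4me3. In H3K4me3, 6 of the 8 were higher in muscle, and in H3K27ac 5 of the 6 tested, where the shares of all genes were 16.1% and 12.9%, and TMM scaling kept these calls and added Barx1 in H3K4me3, with shares of 27.5% and 24.7%. Shox2, a gene of the proximal limb, had H3K27ac in no cortex library and in all 10 muscle libraries, at 3.08 to 6.59 RPM (Fisher's exact test, adjusted p = 0.000179). Its H3K4me3 was 3.53 to 11.1 RPM in the cortex and 11.2 to 22.9 RPM in the gastrocnemius, without overlap (-1.19 ± 0.18, edgeR, adjusted p = 7.7e-06), and the peak was 2.60 kb wide in the cortex and 10.9 kb in the gastrocnemius. H3K27me3 at Shox2 was lower in muscle, at 15.9 and 10.6 RPM (0.62 ± 0.18, adjusted p = 0.0127), a call lost without the libraries with an S number (0.31, adjusted p = 0.251) and with all reads of overlapping peaks (0.39, adjusted p = 0.121). Pitx1, which sets hindlimb identity, had at most 3.30 RPM of H3K4me3 in the cortex and 4.54 to 8.08 RPM in the gastrocnemius (-2.15 ± 0.56, adjusted p = 0.00226), with H3K27ac in 6 of 10 muscle libraries and no cortex library.

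Msx1, a gene of limb mesenchyme and muscle precursors, averaged 16.5 and 31.0 RPM of H3K4me3 (-0.91 ± 0.14, edgeR, adjusted p = 1.37e-05) and 5.22 and 8.65 RPM of H3K27ac (-0.75 ± 0.15, adjusted p = 0.000232). Alx4 averaged 5.72 and 11.9 RPM of H3K4me3 (-1.06 ± 0.17, adjusted p = 1.3e-05), a call lost with all reads of overlapping peaks (-0.37, adjusted p = 0.22). Msx2 had H3K4me3 in 9 of 9 cortex and 6 of 10 muscle libraries, which was not called (adjusted p = 0.146). Other settings called it higher in the cortex (edgeR, adjusted p = 0.00908 to 0.0918). They were all reads of overlapping peaks (1.96), a 2.5 kb window (1.96), equally many top-scoring peaks (3.63) and a block by label number (2.7). Barx1 was not called either, but it was called higher in muscle with TMM scaling, a 2.5 kb window and the cortex libraries of the 5 other mice.

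Meis2, which acts in striatal and olfactory interneurons and in the proximal limb, had peaks of both active marks in every library of both tissues, with more signal in the cortex. H3K4me3 was 25.3 to 37.2 RPM in the cortex, with a median of 31.5, and 13.2 to 21.4 RPM in the gastrocnemius, with a median of 15.5 (0.96 ± 0.09, edgeR, adjusted p = 1.24e-08). H3K27ac was 8.24 to 15.4 RPM against 2.24 to 4.45 RPM (1.70 ± 0.12, adjusted p = 2.84e-10). The tissues did not overlap in either mark. With the cortex libraries of the other 5 mice the log2 fold change of H3K4me3 was 0.90.

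In the last group, Tlx1 had H3K4me3 in no cortex library and in all 10 muscle libraries, at 4.44 to 6.81 RPM with a median of 5.84 (Fisher's exact test, adjusted p = 0.00022). Its H3K27me3 averaged 16.8 and 12.1 RPM (0.49 ± 0.14, edgeR, adjusted p = 0.00921), so both marks stood together in muscle. H3K27ac at Tlx1, in 3 of 10 muscle libraries, passed the read test (adjusted p = 0.0176) but not with the animal as a block (adjusted p = 0.204). Six3 averaged 11.5 ± 7.18 and 4.16 RPM of H3K4me3 (1.46 ± 0.32, edgeR, adjusted p = 0.000478), a call that was lost without the 4 cortex libraries described above. Barhl2 averaged 3.55 and 6.07 RPM (-0.77, adjusted p = 0.000233), and Barhl1 and Tlx3 were not called in H3K4me3. Tlx3 was called higher in muscle with TMM scaling (-1.43, adjusted p = 0.0831) and in 4 other settings (adjusted p = 0.00866 to 0.0773), and Barhl1 with every curated transcript start (-2.19, adjusted p = 0.0377) and with equally many top-scoring peaks (-3.90, adjusted p = 0.0077).

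**Figure D5:**
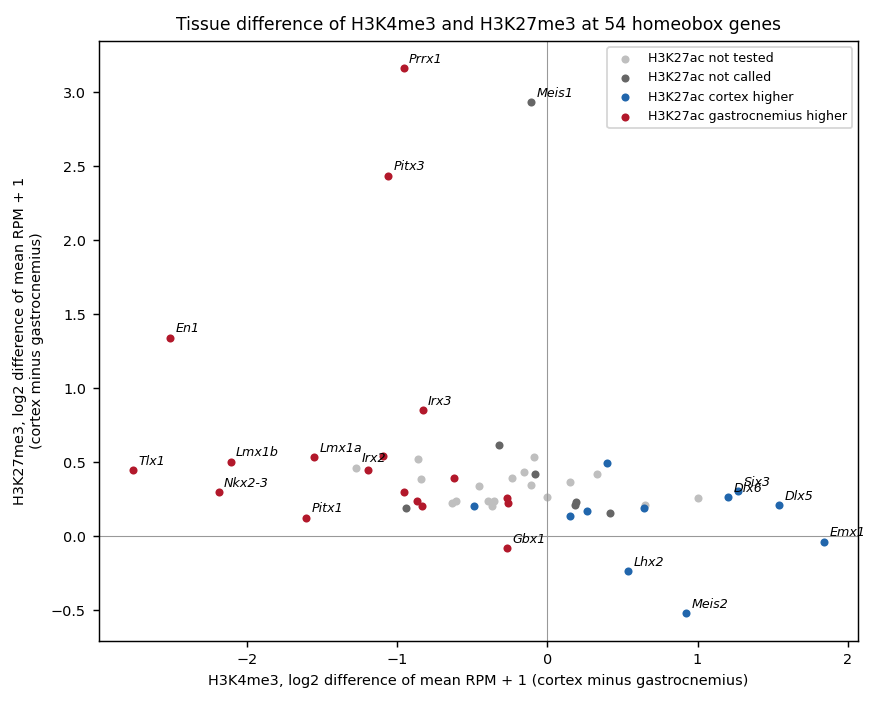
Difference between the tissues (cortex minus gastrocnemius, log2 of mean RPM plus 1) in H3K4me3 (horizontal) and in H3K27me3 (vertical) for each of the 54 genes, coloured by the H3K27ac read test. Most genes lie a little above 0 in H3K27me3 whatever their H3K4me3, with Prrx1, Meis1, Pitx3 and En1 far above and Meis2 lowest.

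Over the gene bodies, H3K4me3 was called higher in the gastrocnemius at 27 and in the cortex at 15 of 53 genes, against 31.0% and 37.0% of the 17542 genes tested. H3K27ac was called at 18 and 16 of 39 genes, against 32.3% and 40.3%. H3K27me3 was called higher in the cortex at 28 and in the gastrocnemius at 2 of 54, Meis2 and Emx1, against 28.4% and 26.6%. The count of 28 fell with the cortex libraries of the 5 other mice and without the libraries with an S number. It rose with DESeq2, as given in the last section. Emx1 had 4.04 and 5.48 RPM per kb of H3K27me3 over its 16.5 kb (-0.44, edgeR, adjusted p = 0.0745), and its H3K4me3 ran over 35.1% of the body in the cortex and 18.0% in the gastrocnemius. Dlx5 had H3K4me3 over 99.5% of its body in the cortex and 34.4% in the gastrocnemius. Lmx1a and Lmx1b were the members whose body and TSS were called in opposite directions, both in H3K27ac and Lmx1b also in H3K4me3 (0.65, adjusted p = 0.0128). Their H3K27ac calls at the TSS were lost with the animal as a block (edgeR, adjusted p = 0.174 and 0.431). The H3K27me3 of Lmx1a covered 76.5% of its 159 kb body in the cortex and 51.5% in the gastrocnemius.

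Genes that act beside these factors were taken from 4 further lists. The shares of all genes called, given above, were 59.0% higher in the cortex and 16.1% higher in the gastrocnemius for H3K4me3, and 19.8% and 23.1% for H3K27me3. Of 11 limb and muscle precursor genes, 10 were tested in H3K4me3, where 9 were called higher in the gastrocnemius and 1 in the cortex. In H3K27me3, 10 of the 11 were called higher in the cortex. Pdgfra, which is in this list, is also among the markers of mononuclear cells of muscle given above. Lbx1, a homeobox gene of migrating muscle precursors, had 33.3 ± 5.96 RPM of H3K4me3 in the gastrocnemius and 1.70 ± 1.37 RPM in the cortex, with H3K27me3 at 5.91 ± 4.35 and 16.1 ± 2.80 RPM. Of 13 interneuron genes downstream of Dlx and Lhx6, 12 could be tested in H3K4me3, and 8 were higher in the cortex and 3 in the gastrocnemius, near the shares of all genes. Gad1 had H3K4me3 in all cortex libraries, at 16.1 ± 7.46 RPM, and in no muscle library, whereas Pvalb, which is also a muscle gene, had it in all muscle libraries, at 13.4 ± 4.76 RPM, and in no cortex library. Of 17 partners of homeodomain and LIM proteins, 15 could be tested in H3K4me3, and 8 were higher in the cortex and 3 in the gastrocnemius, again near those shares, with Pbx4 at 34.7 and 13.5 RPM and Tle4 at 25.8 and 37.1 RPM. Of 12 Polycomb subunits, 8 were higher in the cortex, near the share of all genes, and 0 in the gastrocnemius in H3K4me3, and 3 of the 5 tested were higher in the gastrocnemius in H3K27me3, among them Cbx2 at 2.27 and 8.09 RPM.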

How the data were processed

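Peaks of H3K4me3, H3K27ac and H3K27me3 from 57 ChIP-seq libraries of PSAPP mice were used. The authors aligned paired reads to mm10 with BWA, filtered them with SAMtools and called peaks with epic2 in each library apart. The deposited files give for each peak its position, the reads in it as whole counts, and a score that was used only to rank peaks. Starts and lengths of peaks are multiples of 200 bp. Unmapped, duplicate and poorly mapped reads, and reads outside the autosomes and X, were removed, by a description that makes no difference between tissues. The note on uniquely mapped pairs in the names of the muscle files is not explained there.

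Genes were curated RefSeq genes of GRCm38.p6, with the most upstream TSS. The reads of each peak were spread evenly along it, summed within 1 kb of the TSS or over the gene body, and scaled to 1000000 reads in autosomal peaks. A gene was tested where at least 3 libraries of a tissue had a peak. Rounded reads were tested with edgeR 4.0.16 (quasi-likelihood, library size = autosomal peak reads, no further factor) under R 4.3.3 and limma 3.58.1, and calls with a two-sided Fisher's exact test in SciPy 1.17.1. P-values were adjusted by Benjamini-Hochberg over all genes tested and called under 0.1. DESeq2 1.42.0, TMM factors, other windows, filters, peak sets, left-out libraries and blocks were alternatives. Plotted differences used a pseudocount of 1 RPM. Tables and figures were made with Python 3.11.15, NumPy 2.4.6, pandas 2.3.3 and matplotlib 3.10.9.

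On data simulated from the 13836, 13267 and 2037 tested genes with reads in every library (H3K4me3, H3K27ac and H3K27me3), edgeR recovered 100 of 100 genes changed 2-fold and 88 of 100 changed 1.5-fold for H3K4me3, 99 and 70 for H3K27ac, and 99 and 70 for H3K27me3, and it called 28, 11 and 25 unchanged genes. Genes with no reads in some libraries, such as Prrx1 and Meis1 in H3K27me3, were not simulated, nor were changes under 1.5-fold. The recovery does not describe the tests of such genes or changes. The animal codes in the deposited names pair the tissues of 9 mice, while the replicate numbers of the labels do so for 4. Sex is not in the labels and was not used. Precision is limited by the reads in peaks, whose ranges stand in the report, and counting error alone understates the spread between mice. The genes and the lists were chosen with earlier results of these data known. The genes given in full are, for each mark and direction, the 4 with the largest difference among those called without overlap, together with the pairs Dlx1 and Dlx2, Dlx5 and Dlx6, and Irx3 and Irx5. The other genes are named with their state. Meis1, the genes that differ between cortex libraries, and Meis3 over both marks were given more values after these were seen.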

Additional observations from a re-analysis of the deposited data

Results flagged for a closer look

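Of 31 groups of libraries or genes examined for a value far from the rest of its group, 3 held one, where chance gives about 1 in 20. Each is a total of reads in peaks. The H3K27ac library of cortex replicate 9 held 3935242, against 14385009 in the next lowest. The H3K27ac library of gastrocnemius replicate 6 held 27268192, against 21172404 in the next highest. The H3K27me3 library of gastrocnemius replicate 5 held 18247332, against 7868163 in the next highest. This last library had the only H3K27me3 peaks in muscle at Meis1 and Prrx1, and leaving it out moved the homeobox genes called higher in the gastrocnemius in H3K27me3 from 1 to 2.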

How the results depend on the processing

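Of the genes given in full, none turned its direction under any alternative while called. Of the other calls, Emx2 turned in H3K4me3 with TMM (-0.01) and DESeq2 (-0.04) and in H3K27ac with DESeq2 (-0.00063), Otx1 in H3K4me3 with all reads of overlapping peaks (0.02), and Lhx5 in H3K27me3 with the same (-0.04), each without a call. Nkx6-2, not called in H3K27me3, was called higher in muscle with all reads of overlapping peaks (-0.45). The animal as a block gave 9 and 22 H3K4me3 calls (cortex and gastrocnemius direction, against 10 and 25), 12 and 13 H3K27ac calls (11 and 18) and 26 and 2 H3K27me3 calls (27 and 1). Tissues of an animal deviated together little, with correlations of -0.0707 to 0.0555 for H3K4me3, -0.0645 to 0.0614 for H3K27ac and 0.0412 to 0.128 for H3K27me3. A block by the replicate number of the labels gave 10 and 23, 12 and 13, and 24 and 1. Beside the genes given above, the animal block ended the H3K27ac calls of Lhx4 (adjusted p = 0.228), Lmx1a (0.174) and Emx2 (0.21), and the H3K4me3 calls of Gbx1 (0.163), Nkx6-1 (0.125) and Isl1 (0.117).

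In H3K4me3, TMM and DESeq2 each left 6 of the 10 cortex calls. The test on calls, 0 and 2, gave 1 and 9 with equally many top-scoring peaks, and in the gastrocnemius direction 13 without the 25% lowest-scoring peaks and 1 with a 2.5 kb window, without S-numbered libraries or with 5 cortex animals. In H3K27ac, genes called in every library gave 4 and 5 at the TSS (11 and 18) and 5 and 5 over the body (16 and 18). The H3K27ac test on calls gave 3 in the cortex direction with 5 animals (6), and in the gastrocnemius direction 5 without the lowest-scoring peaks and 3 without S-numbered libraries (8). In H3K27me3, the 27 cortex calls became 49 with TMM, 43 with equally many top-scoring peaks, and 9 without S-numbered libraries or with 5 animals. The single gastrocnemius call became 2 with TMM, DESeq2, the animal block or no S-numbered libraries, and 3 with all reads of overlapping peaks. Over the body, 28 became 45 with DESeq2, 13 with 5 animals and 11 without S-numbered libraries. The setting with 5 cortex animals was chosen after seeing the data. The causes were not tested.

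Leaving out each library in turn gave 10 to 11 and 24 to 26 H3K4me3 read calls, 11 to 12 and 14 to 19 for H3K27ac, and 24 to 32 and 1 to 2 for H3K27me3. The tests on calls gave 0 and 1 to 2, 3 to 7 and 5 to 8, and 3 and 0. The H3K4me3 value of 1 came with any 1 muscle library left out, and the H3K27ac value of 3 without gastrocnemius replicate 2, 3, 5 or 8. The value of 5 came without gastrocnemius replicate 6 or 7. Of the values of named genes, 413 kept and 22 lost their call under other settings, and 685 and 31 with a library left out, these 31 being the calls of Irx5 in both active marks and of Nkx2-3 in H3K27me3. A TSS without a called peak may hold reads below the threshold of the caller, and this limit differs with the depth of a library.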
